A study of Mus musculus with 14 samples.

Results

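The set described here holds 46 genes that make or read the extracellular Wnt signal in mouse: 19 Wnt ligands, 10 Frizzled receptors (Fzd), the co-receptors Lrp5 and Lrp6, 4 R-spondins (Rspo), and the secreted antagonists Sfrp1, Sfrp2, Sfrp4, Sfrp5, Wif1, 5 genes of the Dickkopf family (Dkk) and Sost. They were chosen by gene symbol alone, among the 23523 gene entries of the expression table, and each symbol had 1 entry. The study examined microRNA-218 (miR-218), which motoneurons express from copies inside the genes Slit2 and Slit3, and sequenced polyadenylated RNA from spinal cell types. Of the 14 samples in the labels 13 were used, and a sample of floor plate cells is not analysed here.

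Motoneurons carried the Hb9::gfp reporter and were sorted as GFP-positive cells at E12.5 (embryonic day), from embryos with the 218DKO mutation, a double knockout of miR-218 (DKO, 2 libraries), and from wild type embryos (WT, 6 libraries). Interneurons of the same stage, without the mutation, were sorted for tdTomato, which a Cre driver switches on in each class through the Rosa26:LSL:tdTomato allele. The drivers were En1:cre for V1 and Sim1:cre for V3 interneurons, and V2a interneurons had a driver of their own, with 1 library for each class. Mouse embryonic stem (mES) cells were taken at day 4 of differentiation with retinoic acid and a sonic hedgehog agonist. Of these, 1 library came from tdTomato-positive motoneuron progenitors (pMN, Olig2:cre;Rosa26:LSL:tdTomato) and 1 from unsorted neural progenitors (NP) with no reporter. Cre labelling is permanent, so a tdTomato-positive sort includes any cell whose ancestors used the driver. No label names the strain or says that libraries came from separate embryos. The p-values here rest on how these libraries vary, which within DKO and within WT motoneurons may be technical variation only. The interneuron classes were tested together as 1 group, and so were the mES progenitors. With 1 library for each cell type, the spread in those groups includes differences between cell types and is not that of replicates.

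Wnt proteins are lipid-modified ligands that bind Frizzled receptors. With Lrp5 or Lrp6 as co-receptor they stabilise β-catenin, which enters the nucleus and acts with Tcf/Lef factors, while other Wnt and Frizzled pairs act through planar cell polarity or calcium. Secreted Frizzled-related proteins and Wif1 bind Wnts, Dickkopf proteins and sclerostin (Sost) bind the co-receptors, and R-spondins keep receptors at the surface by acting on Lgr receptors and the ligases Znrf3 and Rnf43. In the developing spinal cord, Wnts from the dorsal midline act on progenitor growth and patterning, and Wnt and Frizzled proteins guide axons.

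Because miR-218 is the molecule removed in DKO cells, its sequence is shown with the matches that Wnt pathway transcripts carry. Capitals mark the seed of the microRNA, bases 2 to 8, and in the sites the letters of the match searched for, which in an 8mer are the bases that pair with the seed and the A that follows them. The mature miR-218-5p, from RefSeq (GRCm38.p6), is the same from both of its genes, on chromosome 5 in Slit2 and on chromosome 11 in Slit3. The 5 sites are the 8mer matches of the set and the second sites of the 2 genes with both kinds, read on the transcript strand of GRCm38 from 3′ UTRs of GENCODE M21.
miR-218-5p: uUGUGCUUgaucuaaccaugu
Sost 8mer, chr11:101962521-101962550, minus strand: atcgctttgtgAAGCACAAgtgtgtgtggt
Sost 7mer-m8, chr11:101962715-101962743, minus strand: gtttgtaacagAAGCACAtggaggggggg
Fzd4 8mer, chr7:89411368-89411397, plus strand: gatattctactAAGCACAActaaggacacc
Fzd4 7mer-m8, chr7:89409372-89409400, plus strand: attacaattaaAAGCACAttcttggacca
Wnt2b 8mer, chr3:104946905-104946934, minus strand: ctctgactcaaAAGCACAAgacccttgcat

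Sites were searched on the transcript strand as AAGCACAA (8mer), AAGCACA (7mer-m8) and AGCACAA (7mer-A1), and each gene was counted once, under its strongest class, since the 8mer contains both 7mers. All 46 genes had an annotated 3′ UTR. An 8mer stood in 3 of them (Sost, Fzd4 and Wnt2b, 6.52%), against 3.42% of all 21062 entries with a UTR. A 7mer-m8 was the strongest match in 8 (Dkk2, Fzd10, Fzd3, Fzd6, Sfrp2, Wnt7a, Wnt8b and Wnt9b, 17.4%), against 8.49% of all, and a 7mer-A1 in none, against 4.27% of all. The UTRs of the 8mer genes measured 1388 bases in Sost, 4774 in Fzd4 and 1699 in Wnt2b, and Dkkl1, which had no match, had a UTR of 71 bases.

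The deposited value is a length-scaled signal per gene, so levels can be compared between genes as well as between libraries. Steps between low values put the depth, in M reads, at about 7.44 for DKO replicate 1 and 15.6 for DKO replicate 2. WT motoneurons had 11.9 to 28.4 M, interneurons 16.3 to 17.5 M and mES libraries 23.5 to 26.1 M. In a transcript of 2000 bases, 3 reads gave a signal between 0.996 in WT replicate 1 and 3.95 in DKO replicate 1, and values below that carry counting error of their own size. The sorting markers given here were highest in the libraries labelled for them. Mnx1, the gene behind the Hb9 reporter, had a signal of 3863 to 4330 in DKO and 2194 to 3995 in WT motoneurons and at most 7.46 in interneurons, En1 reached 851 in V1, Sim1 808 in V3 and Olig2 1495 in pMN cells. The V2a library also had the motoneuron genes Slc18a3 at 1202 and Chat at 309, against 1658 to 2720 and 339 to 500 in WT motoneurons. Rn45s, a ribosomal RNA precursor, had 10197 to 27943 in WT replicates 2, 3 and 4, against 644 to 4275 in every other library. Slit3 and Slit2, the host genes of miR-218, had 3571 to 3845 and 3894 to 3929 in DKO, against 571 to 694 and 1344 to 2219 in WT motoneurons. A sum over all cells of a library cannot tell fewer cells of a type from less RNA per cell.

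In WT motoneurons 30 of the 46 genes exceeded 3 approximate reads in every library, and 9 (Dkk4, Wnt1, Wnt3a, Wnt6, Wnt8a, Wnt8b, Wnt10a, Wnt10b and Wnt16) stayed at or below 3 reads in all 6. Wnt10b and Dkk4 were at 0 in every WT library. Wnt1, Wnt3a, Wnt6, Wnt8a and Wnt10b are ligands of the dorsal midline or of the early embryo, and at these depths their RNA was not detectable above a few reads.

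Among the ligands of WT motoneurons, Wnt11, known for signalling through planar polarity, stood highest with 69.6 ± 14.4 (SD, n = 6), or 30.1% of the summed ligand signal. Wnt3, a ligand of the β-catenin branch, followed at 46.3 ± 9.64 (SD, n = 6). Wnt7b at 30.7 ± 15.7, Wnt4 at 27.1 ± 10.2 and Wnt5a at 26.6 ± 7.28 (SD, n = 6 each) lay within one another's spread. Wnt11 was above Wnt3 in each of the 6 libraries, although their ranges, 53.9 to 87.5 and 38.0 to 61.3, overlapped between libraries.

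Receptor signal of WT motoneurons came mostly from Fzd3, the Frizzled known to guide axons together with the cadherin Celsr3, which had 313 ± 77.3 (SD, n = 6) and 61.2% of the summed Frizzled signal. Fzd1 had 63.9 ± 18.0 and Fzd7 54.1 ± 11.3 (SD, n = 6 each), 2 receptors that overlapped across libraries, and the remaining 7 Frizzleds averaged between 2.23 (Fzd5) and 22.1 (Fzd9). Lrp6 had 147 ± 24.8 against 8.82 ± 1.52 for Lrp5 (SD, n = 6 each), so Lrp6 made up 94.3% of the co-receptor signal. Rspo2, which motor axons release at the neuromuscular junction in mouse, and Rspo3 had 21.1 ± 3.32 and 18.5 ± 6.72 (SD, n = 6 each) and overlapped, while Rspo1 and Rspo4 averaged 1.47 and 1.31.

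Among the secreted antagonists, Sfrp1 had 219 ± 23.6, Dkkl1 181 ± 27.1, Sfrp2 91.4 ± 29.0 and Dkk3 91.0 ± 12.7 (SD, n = 6 each). Sfrp1 and Sfrp2 bind Wnts. Dkkl1 is a Dickkopf-related protein known from sperm, and Dkk3 is a divergent Dickkopf that is not an established Lrp6 antagonist. Dkk1, the classical Lrp6 antagonist, had 25.0 ± 10.4, and Sfrp4 had 38.0 ± 9.16 (SD, n = 6 each). Sost, the co-receptor antagonist known from bone, had 8.90 ± 5.32 (SD, n = 6), and Wif1, Sfrp5 and Dkk2 averaged 1.54, 1.28 and 3.08.

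**Figure D1:**
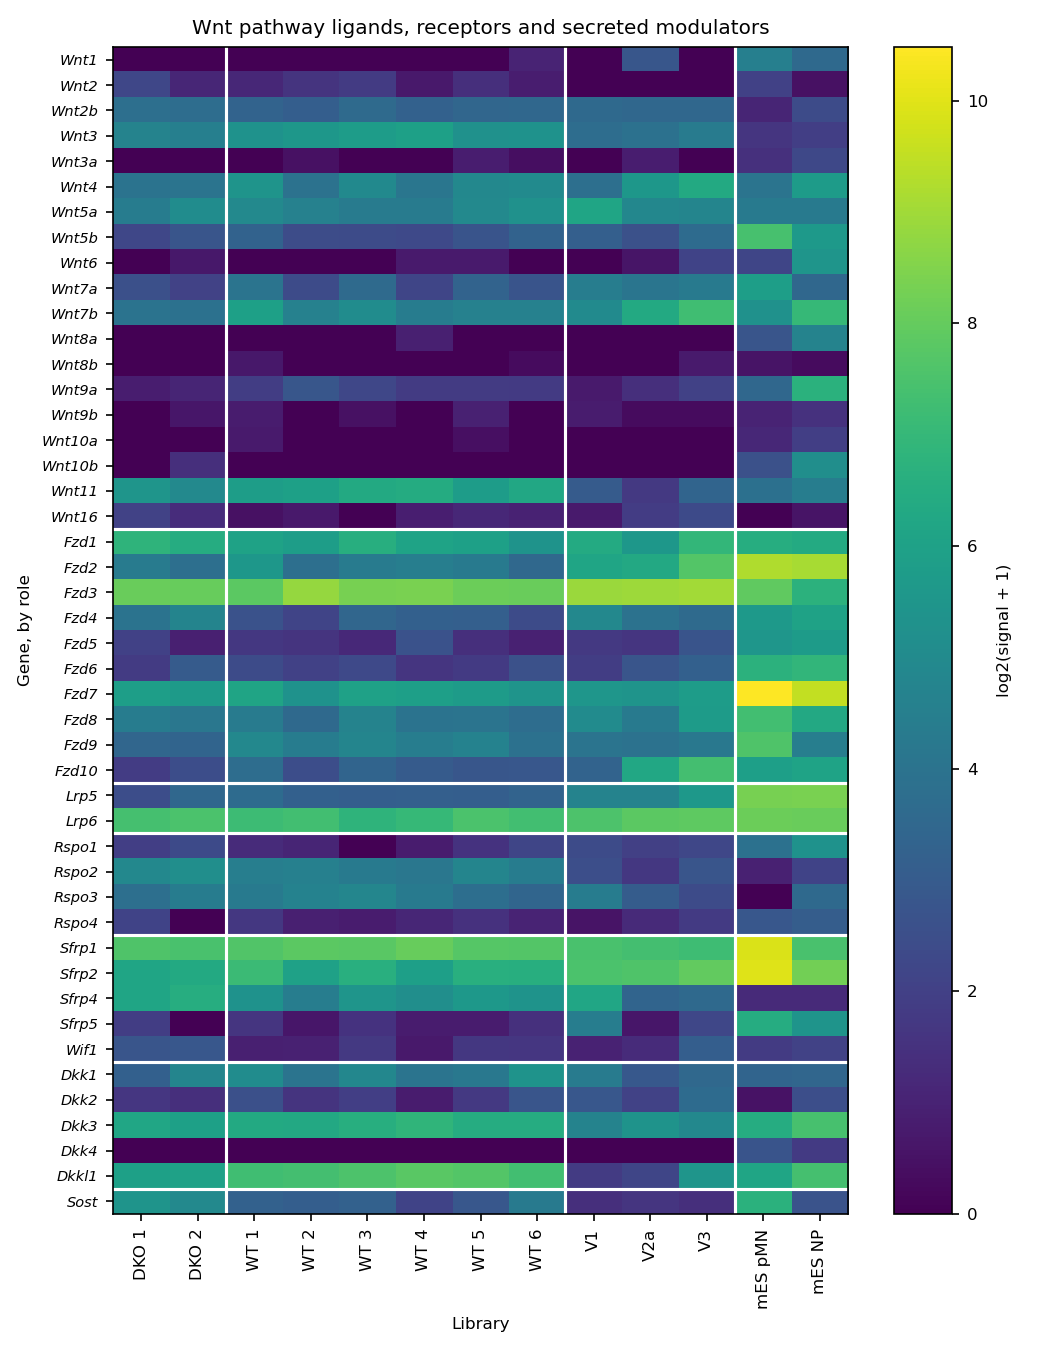
Heat map of log2(signal + 1) for the 46 genes (rows, grouped by role from ligands at the top to Sost) in the 13 libraries (columns, grouped as DKO motoneurons, WT motoneurons, interneurons and mES progenitors). Fzd3, Lrp6, Sfrp1 and Dkkl1 are bright in the 6 WT motoneuron libraries, and Fzd2, Fzd7, Lrp5 and Sfrp2 are brightest in the mES columns.

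Loss of miR-218 was addressed by comparing DKO with WT motoneurons. In DKO motoneurons the secreted antagonists Sost and Sfrp4 were higher (4.01-fold and 2.13-fold), and Dkkl1, the ligands Wnt3 and Wnt11 and the receptor Fzd9 were lower (2.94-fold, 1.96-fold, 1.92-fold and 2.29-fold). Of the 37 genes tested, 2 were higher and 4 lower, and 31 did not pass. Over all 16260 genes tested, 3.22% were higher and 4.77% lower, beside 5.41% and 10.8% of the set, which is 2 and 4 genes. Higher genes made up 40.3% of all calls, and 52.3% where libraries were scaled to their total signal. The median log2 difference of the 37 genes was -0.18, and that of all genes 0.00. Tests were made with limma on log2(signal + 1), adjusted by Benjamini-Hochberg over all genes.

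Dkkl1 had a signal of 60.7 and 62.3 in the DKO libraries, against 154 to 219 with a median of 175 in the 6 WT libraries. The DKO libraries nearly coincided, and both lay far below the lowest WT library. Dkkl1 averaged 61.5 ± 1.08 in DKO (SD, n = 2) and 181 ± 27.1 in WT (SD, n = 6), a log2 difference of -1.53 with a standard error of 0.16 (limma, adjusted p = 0.000822). It passed without any 1 of the 8 libraries, with an adjusted p of 0.00128 to 0.0307.

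Sost had 41.7 and 29.6 in DKO, against 3.37 to 19.0 with a median of 8.13 in WT. Both DKO libraries were above every WT library, the highest of which, replicate 6, stood apart from the other 5 at 3.37 to 8.63. The means were 35.7 ± 8.55 in DKO (SD, n = 2) and 8.90 ± 5.32 in WT (SD, n = 6), a log2 difference of 2.02 with a standard error of 0.47 (limma, adjusted p = 0.0279). These signals stand for approximately 32.7 and 48.8 reads in DKO and 5.0 to 47.9 in WT. The adjusted p was 0.257 without DKO replicate 1 and 0.153 without DKO replicate 2, while the log2 difference stayed between 1.78 and 2.26.

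Wnt3 had 25.2 and 22.1 in DKO, against 38.0 to 61.3 with a median of 42.4 in WT (log2 difference -0.92, standard error 0.24, limma adjusted p = 0.0383). Wnt11 had 43.2 and 29.2 in DKO, against 53.9 to 87.5 with a median of 69.7 in WT (-0.93, standard error 0.24, adjusted p = 0.0425). Both ligands were below the WT range in both DKO libraries. They are the 2 most abundant ligands of WT motoneurons, and the summed signal of the 19 ligands was 148 and 142 in DKO, against 193 to 267 in WT. Wnt7b, a β-catenin ligand, had 14.7 and 13.9 against 20.1 to 61.5 (adjusted p = 0.146), and Wnt9a 0.787 and 1.13 against 2.46 to 6.05 (adjusted p = 0.133). Wnt7b and Wnt9a did not pass although their groups did not overlap. The Wnt9a signals stand for approximately 1.0 and 3.0 reads in DKO and 6.0 to 18.8 in WT. Wnt5a, the ligand of the polarity branch, had 20.3 and 33.2 against 19.5 to 38.3, and Wnt4 15.0 and 15.4 against 14.4 to 41.6 (adjusted p = 0.99 and 0.258), so both DKO libraries lay inside the WT range. Wnt2b had 13.2 and 12.6 against 7.69 to 11.4 (log2 difference 0.40, 95% interval -0.21 to 1.02, adjusted p = 0.377).

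The receptors showed a lower Fzd9, with 9.90 and 9.47 in DKO and 13.9 to 28.5, median 22.2, in WT (log2 difference -1.08, standard error 0.29, limma adjusted p = 0.0474). Fzd9 is a Frizzled known from neural precursors and muscle, and its DKO libraries lay below every WT library. Fzd4, the Frizzled that also binds norrin, had 14.9 and 25.8 in DKO, against 3.44 to 10.1 with a median of 6.64 in WT. Its log2 difference was 1.53 with a standard error of 0.42 and an adjusted p of 0.0505, just short of the threshold, although the groups did not overlap. Fzd3, the most abundant receptor, had 274 and 266 in DKO, inside the WT range of 229 to 452 (log2 difference -0.18, 95% interval -0.63 to 0.28, adjusted p = 0.619). Fzd1 had 111 and 89.0 against 40.3 to 95.3 (adjusted p = 0.139), and Fzd7 57.0 and 51.7 against 40.0 to 67.8 (adjusted p = 0.947). Lrp6 had 167 and 180 against 111 to 183, and Lrp5 4.54 and 10.4 against 7.67 to 11.7, and neither passed (adjusted p = 0.384 for Lrp6).

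Sfrp4 had 71.3 and 91.0 in DKO, against 21.0 to 47.2 with a median of 40.4 in WT (log2 difference 1.11, standard error 0.28, limma adjusted p = 0.0394), and the groups did not overlap. Wif1 had 5.82 and 6.13 against 0.622 to 2.37, without overlap, at approximately 5.1 and 11.2 reads in DKO and 1.0 to 7.1 in WT (log2 difference 1.52, adjusted p = 0.0644). Sfrp1, the most abundant antagonist, had 192 and 179 against 196 to 261 (adjusted p = 0.288). Sfrp2 had 70.5 and 81.8 against 59.9 to 140 (adjusted p = 0.682). Dkk3 had 72.4 and 61.0 against 78.7 to 114 (adjusted p = 0.145), and Dkk1 8.18 and 26.3 against 15.6 to 40.6 (adjusted p = 0.421). Neither Dickkopf gene passed. The 2 DKO libraries of Dkk1 lay apart, 1 below the WT range and 1 inside it.

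Rspo2 had 28.9 and 35.2 in DKO, above the WT range of 16.7 to 26.5, but did not pass (log2 difference 0.59, 95% interval 0.06 to 1.12 before adjustment, adjusted p = 0.152). Rspo3 had 13.1 and 20.3 against 9.55 to 27.4 (adjusted p = 0.91). Rspo1 and Rspo4 lay near the level of a few reads, with at most 4.09 in DKO and 3.57 in WT. The 13 tested genes without a difference given above, Rspo1 and Rspo4 among them, had log2 differences between -0.88 (Fzd10) and 0.99 (Rspo1), none of which passed.

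The calls other than Dkkl1 rested on both DKO libraries. Without DKO replicate 1, and again without DKO replicate 2, Dkkl1 alone passed, and Wnt3, Sfrp4, Wnt11 and Fzd9 had adjusted p-values of 0.123 to 0.247 and 0.264 to 0.365. Without WT replicate 4, Dkkl1 and Sost passed, and Wnt3, Sfrp4, Wnt11 and Fzd9 each lost their call without WT replicate 3 and without WT replicate 4 (adjusted p of 0.0516 to 0.0775). Wnt3, Sfrp4 and Wnt11 also lost theirs without WT replicate 6 (0.0501 to 0.0719), and Fzd9 without WT replicate 1 or 5 (0.0613 and 0.0815). Fzd4 passed without WT replicate 3 (0.0459). Markers of motoneurons moved in the same comparison: 3 of 8 were lower in DKO (Prph, Slc18a3 and Lhx3), and their summed signal was 9860 to 10550 in DKO, against 14370 to 18180 in WT, with none of the 8 at 0. Prph accounted for most of that gap, with 448 and 459 in DKO, against 4826 to 7874 in WT. Dividing-cell markers had 3 of 8 lower (Top2a, Mcm2 and Aurkb, the last at 0 in both DKO libraries), with summed signals of 713 to 735, against 733 to 836. The sums of 5 other marker lists did not overlap between the groups. Those of V2a, pMN, dividing-cell, floor plate, dorsal, endothelial, blood, microglia and glia markers did overlap. V1 markers summed to 986 and 993 in DKO, against 363 to 811 in WT, with 1 of 6 higher (Foxp2), while En1 had 2.05 and 1.96 in DKO and 2.73 to 40.8 in WT. V3 markers summed to 253 and 267, against 81.9 to 250, and neural crest markers to 427 and 418, against 140 to 353. Most of the V3 sum in DKO was Slc17a6, with 227 and 243 in DKO and 65.8 to 174 in WT. Sim1 had 0.355 and 0.679 in DKO, against 0.241 to 4.13 in WT, and Nkx2-2 1.27 and 0, against 0.680 to 15.8. Foxd3, which stands in both the V1 and the neural crest list, had 382 and 384 in DKO and 93.0 to 304 in WT. Pluripotency markers summed to 37.8 and 29.0 in DKO, against 8.99 to 20.4 in WT, and mesenchyme markers to 6.51 and 4.46, against 8.44 to 201. None of the V3, neural crest, pluripotency or mesenchyme markers tested passed. The part of these in the results for Wnt genes was not tested.

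**Figure D2:**
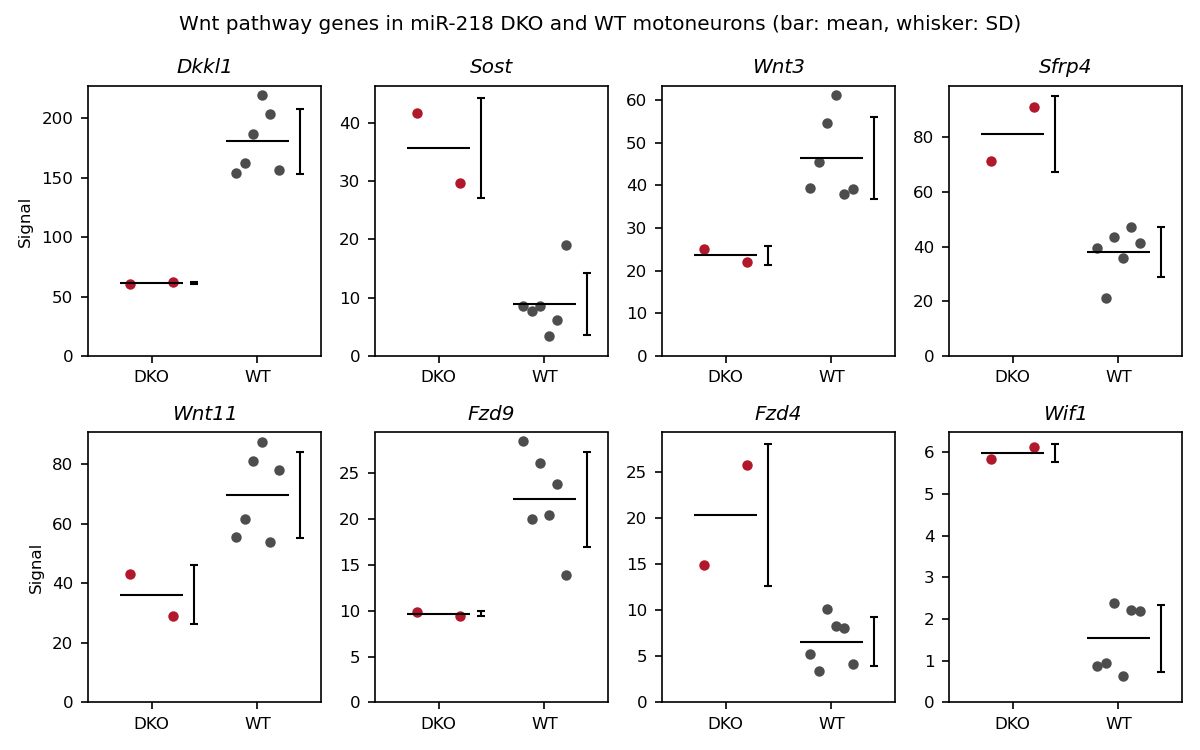
Signal of the 6 genes that passed and of Fzd4 and Wif1, which did not, in each DKO library (left, red, n = 2) and WT library (right, grey, n = 6), with the mean as a bar and the SD as a whisker beside it. In all 8 panels the DKO points lie outside the range of the WT points, but the genes were picked by this same comparison. The share of all genes without overlap is not given.

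Read against the sites, the 8mer genes Sost, Fzd4 and Wnt2b had log2 differences of 2.02, 1.53 and 0.40 (median 1.53), and 1 of the 3, Sost, passed. Over all 629 tested genes with an 8mer, the median was 0.31, 19.1% were higher and 0.954% lower. The 6 tested genes whose strongest site was a 7mer-m8 (Dkk2, Fzd10, Fzd3, Fzd6, Sfrp2 and Wnt7a) had a median of -0.28 and none passed, where 8.49% of 1543 such genes were higher. Of the 28 tested genes without a site, 1 (Sfrp4) was higher and 4 were lower, with a median of -0.15, against 1.54% higher and 5.66% lower among 12057 genes without one. Dkkl1, Wnt3, Wnt11 and Fzd9, which were lower, carried none of the 3 matches. A match describes letters in an annotated UTR and not binding.

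**Figure D3:**
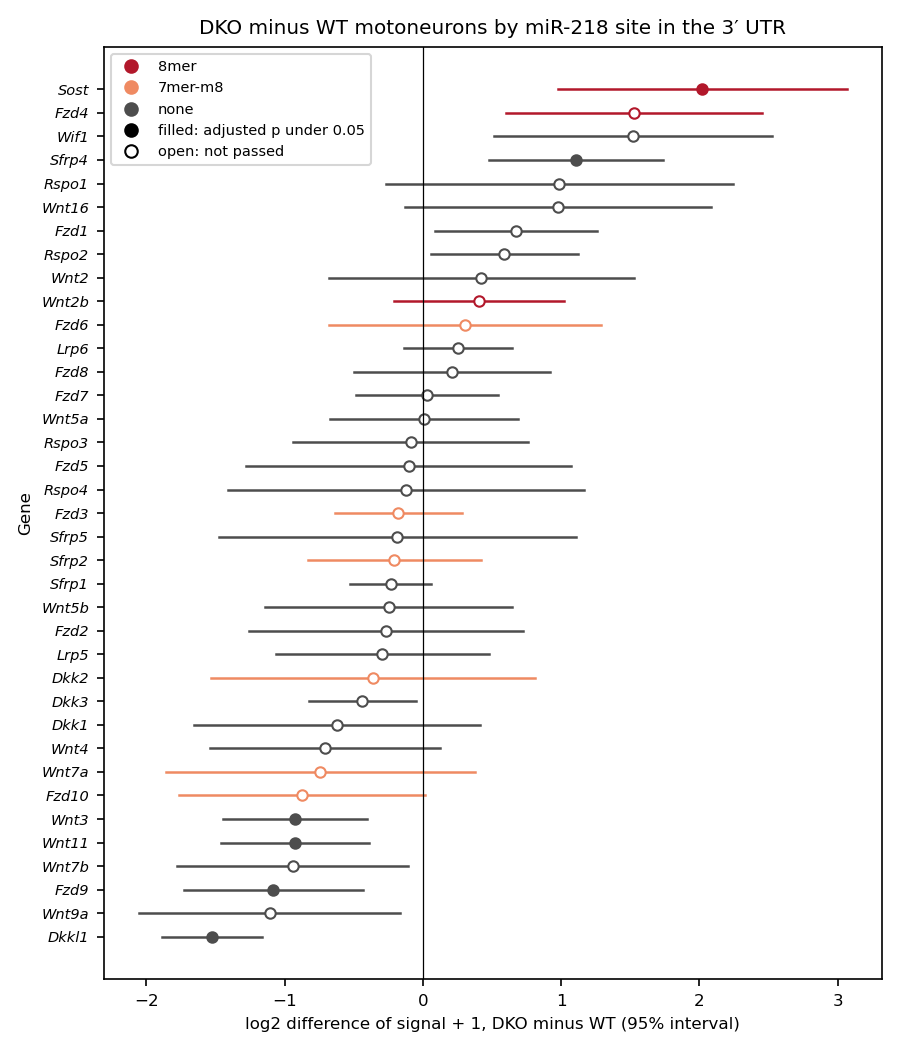
Log2 difference of signal + 1, DKO minus WT motoneurons, with its 95% interval, for the 37 tested genes, coloured by the strongest miR-218 match in the 3′ UTR (filled circles passed, open circles did not). The 3 genes with an 8mer, Sost, Fzd4 and Wnt2b, are all right of 0, and the 7mer-m8 genes lie on both sides.

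Of the other genes of the Wnt pathway, 91 from 7 lists were tested in DKO motoneurons. None was higher and 6 were lower, or 6.59%, where 3.22% of all genes were higher and 4.77% lower. These counts rested on single libraries: 2 were lower without DKO replicate 1 and 1 without DKO replicate 2, while without WT replicate 2 there were 11 lower and 1 higher. Against WT replicates 2, 3 and 4 only, there were 5 higher and 9 lower genes. Against WT replicates 1, 5 and 6 only, there were 4 higher and 11 lower, and total-signal scaling gave 2 higher and 5 lower. Ankrd6, the polarity protein Diversin, had 284 and 255 in DKO, against 487 to 643 in WT (log2 difference -1.05, adjusted p = 0.00161). Prickle1, also of the polarity branch, had 124 and 91.8 against 157 to 215 (-0.84, adjusted p = 0.0162), and Prickle3 had 1.10 and 0 against a lowest WT value of 5.28 (adjusted p = 0.00808). With them, 3 of 17 polarity genes were lower. Cthrc1, a secreted cofactor of Wnt and Frizzled complexes, was 1 of 7 other extracellular genes, with 56.1 and 56.9 in DKO and 98.1 to 131 in WT (log2 difference -0.96, adjusted p = 0.00583). Ctnnb1, the gene of β-catenin, was 1 of 24 intracellular genes (1946 and 1894 against 2329 to 2817, log2 difference -0.41, adjusted p = 0.0444), and the co-repressor Tle3 1 of 13 nuclear genes (-0.42, adjusted p = 0.0412). None of 12 other receptors, 9 secretion genes or 12 target genes passed in either direction, and the medians of the 7 lists lay between -0.55 and -0.02. The summed signal of the other receptors was nonetheless 734 to 787 in DKO, against 924 to 1114 in WT, without overlap. The sums of the remaining lists overlapped.

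WT motoneurons were then compared with interneurons, with the V1, V2a and V3 libraries together as the other group. Motoneurons had more than these interneurons of the ligands Wnt11 and Wnt3, of Rspo2 and of the secreted proteins Dkkl1, Dkk3, Sost and Sfrp1. They had less of the receptors Fzd2, Fzd3, Fzd4 and Fzd10, of both co-receptors, and of Sfrp2, Wnt7a and Wnt7b. Of 36 genes tested, 7 were higher, 9 lower and 20 did not pass, or 19.4% higher and 25.0% lower, against a background of 17.7% higher and 15.2% lower among 16486 genes. Of all calls 53.9% were higher in motoneurons, and 34.0% where libraries were scaled to total signal, which put the median of all genes at -0.22. The median log2 difference was -0.48 for the set and -0.04 for all genes as deposited.

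Wnt11 had 53.9 to 87.5, median 69.7, in WT motoneurons, against 6.95 in V1, 2.34 in V2a and 9.50 in V3. It was 11.1-fold higher in motoneurons, with a log2 difference of 3.41 and a standard error of 0.34 (limma, adjusted p = 8.15e-05). Wnt3 had 38.0 to 61.3, median 42.4, in WT motoneurons, against 12.3, 13.9 and 19.6 in V1, V2a and V3 (log2 difference 1.54, standard error 0.24, adjusted p = 0.000993). Both ligands separated the motoneurons from every interneuron class. Wnt7a and Wnt7b were lower, with log2 differences of -1.22 and -1.33 and adjusted p-values of 0.0464 and 0.0495. Wnt7a had 3.51 to 15.4 in WT motoneurons, against 21.0, 15.7 and 18.5 in V1, V2a and V3. Wnt7b had 20.1 to 61.5 against 31.5, 80.5 and 151, so that the V1 library lay inside the motoneuron range. Wnt2b did not pass, with 7.69 to 11.4 in WT motoneurons against 11.1, 10.3 and 10.3 (log2 difference -0.14, 95% interval -0.68 to 0.40), and Wnt5a had 19.5 to 38.3 against 70.5 in V1, 28.1 in V2a and 26.0 in V3 (adjusted p = 0.266).

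Among the receptors, Fzd2 had 10.8 to 46.2, median 19.2, in WT motoneurons, against 70.0 in V1, 79.3 in V2a and 206 in V3 (5.47-fold lower in motoneurons, log2 difference -2.37, standard error 0.45, limma adjusted p = 0.00314). Fzd10 had 4.60 to 12.4 in WT motoneurons, against 9.07 in V1, 76.0 in V2a and 163 in V3 (-2.61, standard error 0.70, adjusted p = 0.0173). The V1 library of Fzd10 lay within the motoneuron range, and the class difference came from V2a and V3. Fzd3 had 229 to 452 in WT motoneurons, against 477, 490 and 527 (-0.70, standard error 0.18, adjusted p = 0.0136), and was the highest Frizzled in motoneurons and in each interneuron library alike. Fzd4 had 3.44 to 10.1 in WT motoneurons, against 28.5, 14.4 and 11.2 (-1.31, adjusted p = 0.0287), and Fzd8 had 11.0 to 24.9 against 32.4, 19.2 and 52.9, which did not pass (-0.98, adjusted p = 0.052). Lrp5 had 7.67 to 11.7 against 24.4, 24.6 and 47.8, and Lrp6 111 to 183 against 190, 232 and 232 (log2 differences -1.70 and -0.58, adjusted p = 0.00161 and 0.0195). No interneuron library overlapped the motoneurons in either co-receptor.

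Dkkl1 had 154 to 219, median 175, in WT motoneurons, against 2.50 in V1, 3.61 in V2a and 43.3 in V3 (11.0-fold higher in motoneurons, log2 difference 4.33, standard error 0.63, limma adjusted p = 0.00072). V1 and V2a lay close to the level of 3 reads, at approximately 2.5 and 3.8, while V3 had about 43.0. Dkk3 had 78.7 to 114 in WT motoneurons, against 24.9, 40.8 and 28.8 (1.52, adjusted p = 0.000328). Sfrp1 had 196 to 261 against 177, 162 and 151 (0.42, adjusted p = 0.0226), and Sfrp2 59.9 to 140 against 182, 192 and 245 (-1.21, adjusted p = 0.00488), opposite calls for 2 closely related Wnt-binding proteins. Sost had 3.37 to 19.0 in WT motoneurons against 1.64, 2.10 and 1.67, at 3.0 to 4.0 approximate reads in the interneurons (1.67, adjusted p = 0.0138). Rspo2 had 16.7 to 26.5 in WT motoneurons against 4.73, 2.28 and 5.86 (2.12, adjusted p = 0.000538), whereas Rspo3 had 9.55 to 27.4 against 20.3, 7.25 and 4.32 and did not pass (adjusted p = 0.141). Sfrp4 and Sfrp5 were uneven within the interneurons, with 72.6 in V1 against 9.27 in V2a and 11.1 in V3 for Sfrp4, and 20.8, 0.572 and 3.63 for Sfrp5. With 1 library per class these values have no replicate check.

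Of the 16 calls, 10 held without any 1 of the 9 libraries. The other 6 were Fzd10, Fzd4, Lrp6, Sfrp1, Wnt7a and Wnt7b. Without the V3 library, adjusted p-values were 0.0694 for Fzd10, 0.0632 for Lrp6, 0.0797 for Sfrp1, 0.0977 for Wnt7a and 0.205 for Wnt7b, and without V2a they were 0.0706, 0.0751, 0.0691, 0.0867 and 0.129, with 0.0608 for Fzd4. Without V1, Fzd4 had 0.113 and Wnt7a 0.112. Without WT replicate 2, 4, 5 or 6, Wnt7a had 0.0608 to 0.0795, Wnt7b without replicate 2, 3, 4, 5 or 6 had 0.0698 to 0.0901, and Fzd4 without replicate 6 had 0.0528. Fzd8 passed without WT replicate 3 (0.0392) and without V2a (0.0252). The V3 library was highest in Fzd2, Fzd10, Wnt7b, Lrp5 and Sfrp2. Its 8 dividing-cell markers summed to 2376, against 607 and 1315 in V1 and V2a and 733 to 836 in WT motoneurons. The 8 mesenchyme markers summed to 1014 in V3, with none at 0, against 19.1 and 232 in V1 and V2a and 8.44 to 201 in WT motoneurons, and 5 of the 8 were lower in motoneurons. The 8 dorsal markers summed to 2971 in V3, nearly all of it Olig3 (2618), which cells of the V3 lineage also use, and Zic1 (325), with Atoh1 and Gdf7 at 0. That sum was 95 in V1, 440 in V2a and 34.1 to 101 in WT motoneurons. Blood markers summed to 13220 in V2a, against 219 and 953 in V1 and V3 and 8.47 to 1500 in WT motoneurons. Neural crest markers summed to 1989 in V1, against 99.8 and 60.4 in V2a and V3 and 140 to 353 in WT motoneurons. Their part in these differences was not tested.

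**Figure D4:**
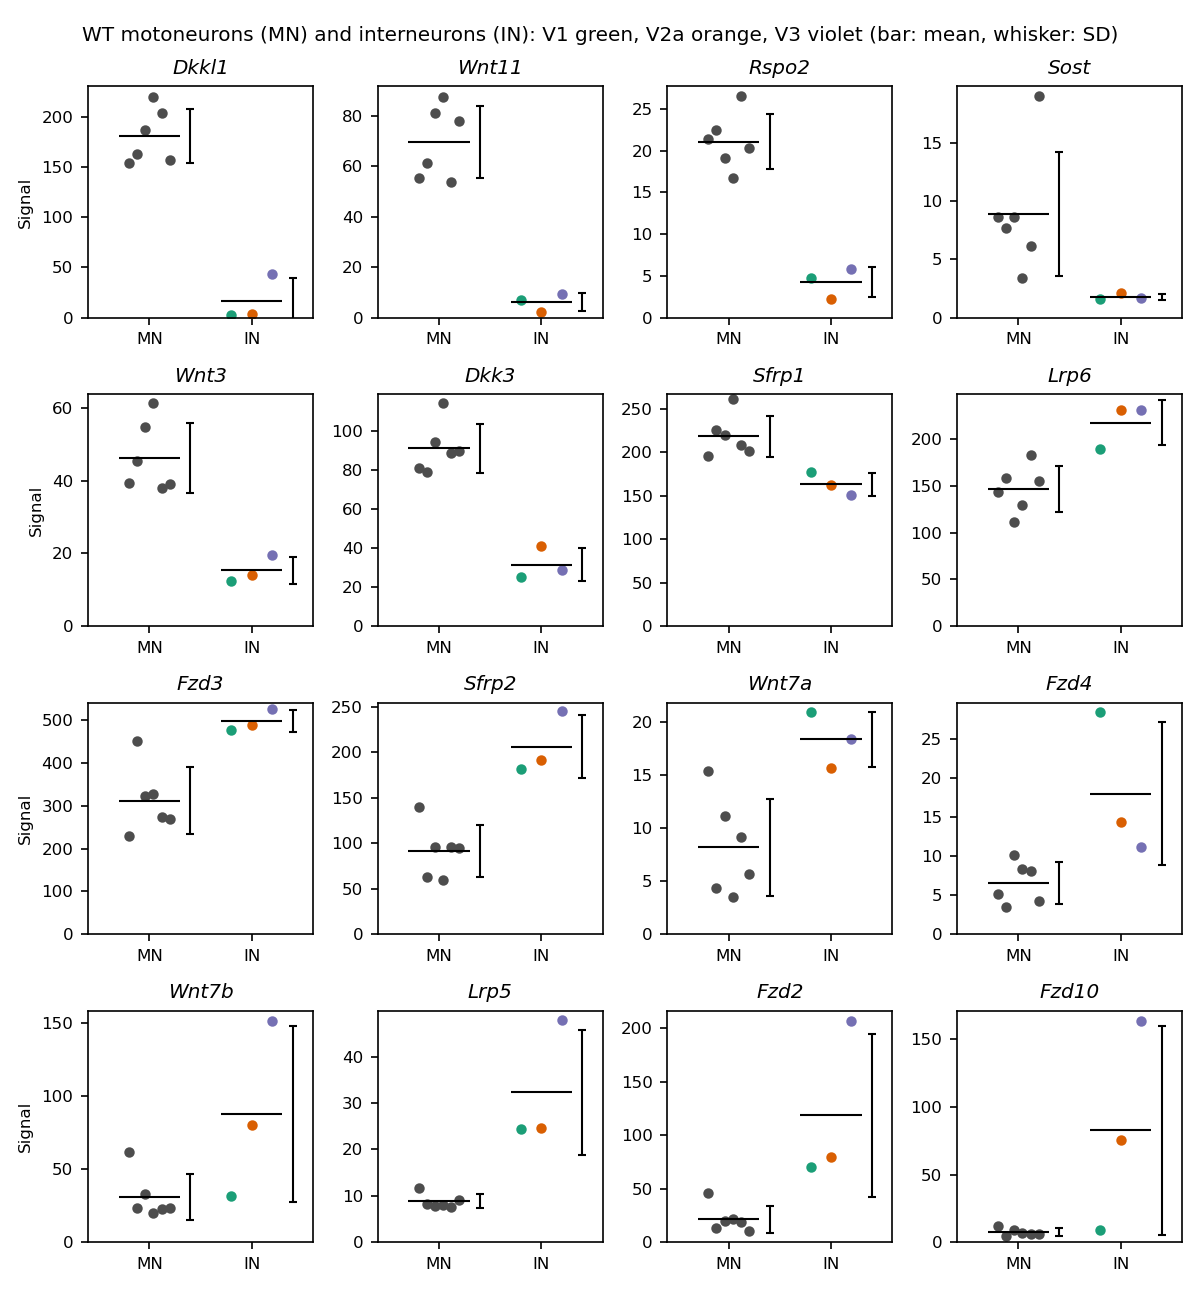
Signal of the 16 genes that passed between WT motoneurons (MN, left, n = 6) and interneurons (IN, right, 1 library each of V1, V2a and V3, coloured), with the mean as a bar and the SD as a whisker. Dkkl1, Wnt11, Rspo2 and Wnt3 are higher in every motoneuron library, and V3 is the highest point for Wnt7b, Lrp5, Fzd2 and Fzd10.

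The rest of the pathway differed between motoneurons and interneurons in both directions, with 17 of 92 genes of the 7 lists higher (18.5%) and 20 lower (21.7%), beside the 17.7% and 15.2% of all genes. Total-signal scaling gave 11 higher and 36 lower genes. Leaving out WT replicates 2, 3 and 4 gave 7 higher and 17 lower, and leaving out the V2a library gave 12 of each. Secretion genes had 5 of 9 higher and 1 lower. The 5 were the retromer subunits Vps35, Vps29 and Vps26a with the sorting protein Snx3 and the cargo receptor Tmed10, with log2 differences of 0.69, 0.44, 0.59, 0.63 and 0.31. Porcn, the enzyme that attaches lipid to Wnts, was the lower one (-0.72, adjusted p = 0.00264). Among target genes, 3 of 12 were higher (Tnfrsf19, Nkd2 and Tbx3, at 1.82, 0.99 and 2.91) and 2 lower. Axin2, the widely used target of β-catenin, was one of these, with 32.0 to 56.1 in WT motoneurons and 71.8 to 113 in interneurons (-1.07, adjusted p = 0.00576), and Ccnd1 the other (-1.47, adjusted p = 0.0353). The R-spondin receptor Lgr4 had 55.3 to 82.1 in WT motoneurons against 137 to 219 (-1.35, adjusted p = 0.000472), and with Ptk7 it made up the 2 of 12 other receptors that were lower, with none higher. Polarity genes had 4 of 17 higher, among them Vangl1 (1.64, adjusted p = 0.00117), and 3 lower, among them Celsr3 (-0.74, adjusted p = 0.0185). Intracellular genes had 4 of 24 higher and 7 lower, nuclear genes 2 of 13 lower (Tle4 and Bcl9) and none higher. With total-signal scaling the intracellular counts were 1 and 13, and 5 nuclear genes were lower. Other extracellular genes had 1 of 8 higher (Cthrc1, 2.08) and 3 lower, among them Frzb, the remaining secreted Frizzled-related gene (-2.11, adjusted p = 0.00685).

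WT motoneurons were next set against the 2 mES progenitor libraries. Progenitors carried far more of most Frizzleds and of Lrp5, and of the ligands Wnt5b, Wnt8a, Wnt9a and Wnt10b, whereas motoneurons had more Wnt3, Wnt11, Wnt2b, Rspo2, Rspo3 and Sfrp4. Of 40 genes tested, 9 passed as higher in motoneurons and 21 as lower, and 10 did not pass, or 22.5% higher and 52.5% lower, where 30.0% of all 17134 genes were higher and 36.2% lower. The median log2 difference was -1.54 for the set and -0.12 for all genes. Source, stage and sorting differ with the groups and cannot be told apart here. Pluripotency markers summed to 8.99 to 20.4 in WT motoneurons and 8913 to 10730 in the mES libraries, with 6 of 6 lower in motoneurons, and dividing-cell markers to 733 to 836 and 15460 to 21290, with 8 of 8 lower.

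Lrp5 had 7.67 to 11.7, median 8.23, in WT motoneurons, against 320 in pMN and 332 in NP cells (37.0-fold lower in motoneurons, log2 difference -5.07, standard error 0.26, limma adjusted p = 6.61e-08). Lrp6 had 111 to 183 against 283 and 271 (-0.93, adjusted p = 0.00145), so the 2 co-receptors were of like level in progenitors and far apart in motoneurons. Fzd7 had 40.0 to 67.8 in WT motoneurons against 1431 and 740 and was the most abundant Frizzled of the progenitors (-4.25, adjusted p = 4.37e-07). Fzd2, Fzd5 and Fzd6 had log2 differences of -4.81, -4.04 and -4.69, and Fzd10, Fzd8 and Fzd4 of -2.95, -2.74 and -3.00, which with Fzd7 makes 7 lower Frizzleds of 10. Of the 10, Fzd3 alone was higher, with 229 to 452 in WT motoneurons against 241 in pMN and 106 in NP cells, so that the pMN library lay inside the motoneuron range (0.93, adjusted p = 0.0218). Fzd1 and Fzd9 did not pass (adjusted p = 0.154 and 0.0547).

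Among ligands, Wnt3 had 38.0 to 61.3 in WT motoneurons against 2.07 in pMN and 2.84 in NP cells (18.9-fold higher in motoneurons, log2 difference 3.76, standard error 0.29, limma adjusted p = 1.19e-06). Wnt11 had 53.9 to 87.5 against 13.5 and 20.9 (1.96, adjusted p = 0.000107), and Wnt2b 7.69 to 11.4 against 1.13 and 4.28 (1.65, adjusted p = 0.00344). These 3 ligands were above both progenitor libraries in every motoneuron library. Wnt5b had 3.95 to 8.94 in WT motoneurons against 173 in pMN and 48.3 in NP cells (-3.79, adjusted p = 6.39e-05), and Wnt9a 2.46 to 6.05 against 10.5 and 103 (-3.04, adjusted p = 0.00268). Wnt1, Wnt6, Wnt8a and Wnt10b were also lower. Wnt1 had at most 1.03 in WT motoneurons against 22.1 and 10.9, Wnt6 at most 0.685 against 3.51 and 42.8, Wnt8a at most 0.918 against 5.84 and 24.9, and Wnt10b 0 in every motoneuron library against 5.07 and 35.8. No fold is given for these 4, since their motoneuron signal stood for at most 3.0 approximate reads. Wnt7a and Wnt7b were lower with overlapping groups (adjusted p = 0.0482 and 0.0446), and Wnt2, Wnt4 and Wnt5a did not pass (0.981, 0.79 and 0.256).

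Sfrp4 had 21.0 to 47.2 in WT motoneurons, against 1.38 and 1.37 in pMN and NP cells (95% interval of the log2 difference 3.24 to 4.75, limma adjusted p = 2.45e-06). Its progenitor signal stood for 3.0 approximate reads in each library, so no fold is given. Sfrp5 had 0.556 to 2.09 against 88.3 and 41.5 (-4.81, adjusted p = 4.23e-06), and Sfrp2 59.9 to 140 against 1007 and 303 (-2.64, adjusted p = 0.000293). Rspo2 had 16.7 to 26.5 in WT motoneurons against 0.967 and 3.37 (2.90, adjusted p = 4.18e-05), and Rspo1 0 to 3.57 against 14.1 and 39.1 (-3.46, adjusted p = 0.000382), 2 R-spondins with opposite calls. Rspo4 was lower (-1.78, adjusted p = 0.00168). Rspo3, Dkk1 and Dkkl1 were higher (2.41, 1.18 and 0.71, adjusted p = 0.0182, 0.0268 and 0.0442). Sost, Wif1, Sfrp1, Dkk2 and Dkk3 did not pass.

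**Figure D5:**
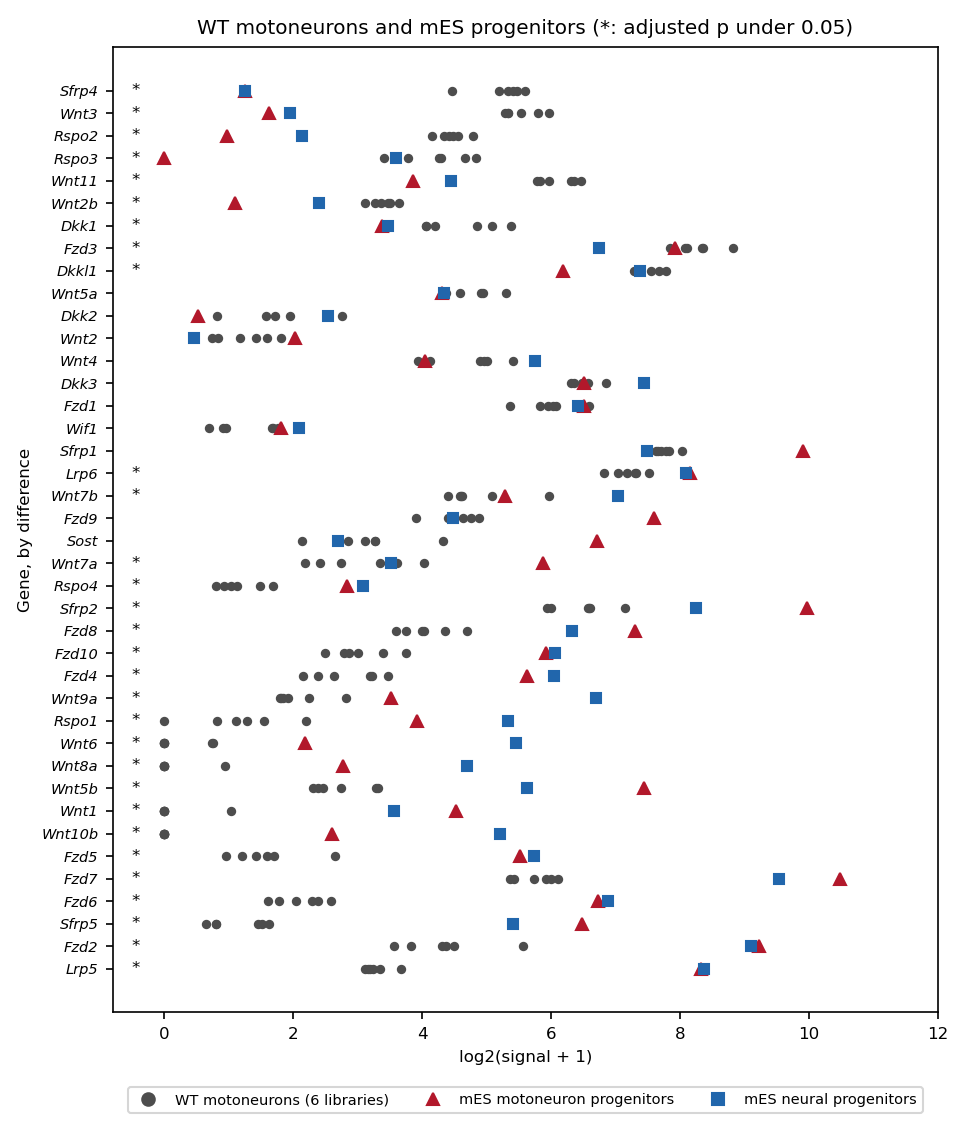
Log2(signal + 1) of the 40 tested genes in the 6 WT motoneuron libraries (grey circles), the mES pMN library (red triangles) and the mES NP library (blue squares), ordered by the fitted difference, with an asterisk for genes that passed. Sfrp4, Wnt3, Rspo2 and Wnt11 lie right in motoneurons, and Lrp5, Fzd2, Sfrp5, Fzd6 and Fzd7 lie right in both progenitor libraries.

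Of the 30 calls, 24 held whenever 1 of the 8 libraries was left out and the gene could still be tested. Among these, Wnt6, Wnt8a and Wnt10b averaged a signal below 1 without the NP library. They were not tested there, so their calls rest on that library. The 6 others were Dkkl1, Dkk1, Rspo3, Fzd3, Wnt7a and Wnt7b. Without the pMN library, adjusted p-values were 0.666 for Dkkl1, 0.134 for Dkk1, 0.37 for Rspo3 and 0.609 for Wnt7a, and without the NP library 0.104 for Dkk1, 0.389 for Fzd3 and 0.564 for Wnt7b. Leaving out WT replicate 2, 3, 4, 5 or 6 gave 0.0515 to 0.0763 for Dkkl1 and 0.0555 to 0.0758 for Wnt7b, and leaving out replicate 2, 4, 5 or 6 gave 0.0612 to 0.0842 for Wnt7a. Fzd9 passed without the NP library (-3.10, adjusted p = 0.000367), and its difference was 0.02 without the pMN library (adjusted p = 0.974).

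Elsewhere in the pathway, 36 of 97 list genes were higher in motoneurons (37.1%) and 42 lower (43.3%), where 30.0% of all genes were higher and 36.2% lower. The list counts below stand against that same background. Total-signal scaling gave 41 higher and 32 lower list genes. Target genes had 13 of 17 lower in motoneurons and 1, Nkd2, higher (0.92, adjusted p = 0.00193). Cyr61, Ccnd1 and Znrf3 had log2 differences of -4.25, -3.03 and -1.51. Cdx1, Sp5 and Notum had at most 0.467, 0.846 and 0.981 in WT motoneurons, against 79.8 to 217, 9.62 to 14.6 and 11.6 to 26.4 in progenitors. In the nuclear list, Tcf7l1, Tcf7, Tcf7l2 and Lef1 were lower, that is all 4 Tcf/Lef factors, with Tcf7l1 at 3.44 to 17.0 in WT motoneurons and 809 to 869 in progenitors, while 5 other nuclear genes of the 13, among them the co-repressors Aes and Tle2 and the cofactor Pygo1, were higher (1.86, 2.83 and 2.25). Lef1 stands in both the target and the nuclear list. Intracellular genes had 17 of 24 higher, among them Apc2 (5.85), Gsk3b (1.92) and Btrc (1.43), genes of the machinery that degrades β-catenin, and 4 lower, among them Ctnnb1 itself (2329 to 2817 in WT motoneurons against 6730 to 7597, -1.49, adjusted p = 4.58e-06). Of 13 other receptors 10 were lower, among them Ptk7, Lgr4, Gpc4 and Znrf3, and Tspan12 was the 1 higher. Wls, the carrier that brings Wnts to the cell surface, had 7.26 to 63.9 in WT motoneurons against 524 to 589 (-4.67, adjusted p = 0.000171), 1 of 6 lower secretion genes of 9, and Porcn the only higher one (0.89). Polarity genes had 8 of 17 higher, among them Celsr3 (4.75) and Ankrd6 (2.55), and 6 lower, and other extracellular genes 3 of 9 higher, among them Draxin (4.29), and 4 lower.

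The 2 progenitor libraries were set side by side without a test, since each kind has 1 library, and 2-fold on the scale of signal + 1 was used as a mark. Of 44 genes averaging a signal of 1 or more, 9 were at least 2-fold higher in pMN than in NP cells (20.5%) and 12 at least 2-fold lower (27.3%), where 8.32% and 16.7% of all 16792 genes were. Sost had 104 in pMN and 5.45 in NP cells, 16.2-fold higher on that scale. Fzd9 had 192 in pMN and 21.4 in NP cells, Sfrp1 956 and 179, Wnt7a 57.7 and 10.4, Wnt5b 173 and 48.3, and Sfrp2 1007 and 303. On the lower side, Rspo3 had a signal of 0 in pMN and 11.1 in NP cells, Wnt6 3.51 and 42.8, Wnt9a 10.5 and 103, and Wnt10b 5.07 and 35.8. Wnt4 at 15.4 and 52.6, Wnt7b at 38.0 and 130, and Dkkl1 at 71.5 and 165 were also past the mark. Fzd3 and Wnt2 were past it upward, with 241 and 3.05 in pMN and 106 and 0.38 in NP cells, and Lrp5, Lrp6, Fzd1 and Fzd2 differed by 1.04-fold to 1.09-fold. Sorting for an Olig2 reporter separates the 2 libraries as well as cell type, and the 2 cannot be told apart.

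Wnt11, Wnt3 and Dkkl1 were lower in DKO than in WT motoneurons and higher in WT motoneurons than in interneurons. These 2 comparisons share the WT libraries. Sost was higher in both (log2 differences of 2.02 and 1.67), and Fzd9 and Sfrp4, also called in DKO, did not pass against interneurons. For Wnt11, Wnt3 and Dkkl1 the DKO libraries did not reach down to the interneuron values. Wnt11 had 43.2 and 29.2 in DKO motoneurons against 2.34 to 9.50 in interneurons, and Wnt3 25.2 and 22.1 against 12.3 to 19.6. Dkkl1 had 60.7 and 62.3 against 2.50 to 43.3.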

How the data were processed

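The deposited table holds, in 13 libraries, a signal for each RefSeq gene, which equals the sum of the deposited transcript signals. It was made by the authors and is not a count: values are scaled for length and between libraries by a formula that no source used here states. The 75th percentile of genes lay between 228 and 234. Per the submitters' processing notes DESeq, bedtools, mm9 and mm10 were used, without a role, with the aligner and counter not given in the sources used here. Low values lay within 0.1 of a whole step of 1 read in 77.4% to 78.7% of cases, which gave approximate depths and reads. Per the labels' protocols, a kit that does not mark strand was used. Reads of Wnt7b and the opposite-strand gene AU022754 therefore cannot be told apart, nor those of Fzd5, Fzd6, Rspo3, Sfrp2 and Wnt11 and opposite-strand genes that the table does not list.

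Because values were normalized, groups were compared with limma 3.58.1 (R 4.3.3) after adding 1 to each signal and taking log2, with a trended prior. Tests were two-sided and took genes averaging at least 1 in the libraries compared, with Benjamini-Hochberg adjustment over them and a threshold of 0.05. Differences on that scale understate low genes, and folds are ratios of mean signals unless said otherwise. The procedure was tested on simulated data. The driver and marker of V2a cells are not reported here. Every gene of the set is named, and from each other pathway list at most 6 called genes by smallest p. Where 5 or fewer were counted, a gene outside that rule (Lef1) was named after its values were seen. The genes and lists were chosen with earlier results of these data known. Coordinates, UTRs and exon overlaps came from GENCODE M21 (GRCm38), matched by transcript accession for all 46 genes. Alternatives were pseudocounts of 0.1 and 5, no filter, a mean of at least 10, median-ratio and total-signal scaling, summed entries, WT replicates 2, 3 and 4 or 1, 5 and 6 alone, each library left out, and a replicate block.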

Additional observations from a re-analysis of the deposited data

Results flagged for a closer look

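Among the 37 genes of the set tested in motoneurons, 6 had 1 WT library set apart from the other 5, in each case the highest. Its gap to the next value was 0.633 (Lrp5) to 0.701 (Fzd5) of the range of the WT signals. That measure does not ask for a large fold. How many such genes chance alone would mark in these values was not tested. WT replicate 1 was highest for Fzd2 (46.2, next 21.5), Wnt7b (61.5, next 33.0) and Lrp5 (11.7, next 9.17). Of the WT libraries it also had the highest summed blood (1500), glia (1035), dividing-cell (836), pMN (805), V3 (250), microglia (169), dorsal (101) and endothelial (43.6) markers. The sums of motoneuron, V1, V2a, pluripotency, floor plate, mesenchyme and neural crest markers were highest in other WT libraries. V1 markers summed to 771 in replicate 1 and 811 in replicate 5. The part of these markers in its high values was not tested. WT replicate 6 was highest for Sost (19.0, next 8.63), the WT library nearest to the DKO values. Fzd5 was highest in WT replicate 4 (5.24, next 2.23), and Wnt9a in WT replicate 2 (6.05, next 3.74), at approximately 25.9 and 18.8 reads. All of the Fzd5 signal in WT replicate 4 was assigned to a transcript that was at 0 in WT replicates 1, 2, 3 and 5.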

How the results depend on the processing

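Between DKO and WT motoneurons, 1299 genes of all and 6 of the set passed. With 1 library left out these counts ran from 97 to 2032 and from 1 to 6, the lowest without DKO replicate 1 (97) or 2 (141, the set at 1 in both). Of all genes 827 passed without WT replicate 4 and 2032 without WT replicate 2, and of the set 2 passed without WT replicate 4 and 3 without WT replicate 3 or 6. Without a filter on low values 3 genes of the set passed. With WT replicates 2, 3 and 4 alone 2452 genes passed, and with WT replicates 1, 5 and 6 alone 2315. WT replicates 2, 3 and 4 are the libraries with the highest Rn45s. With them alone the same 6 genes of the set passed, and with WT replicates 1, 5 and 6 alone 4 of the 6 did, without Wnt11 and Fzd9, and Fzd1, Fzd4 and Wnt4 passed besides. Scaled to total signal, Wnt11 and Fzd9 did not pass (adjusted p = 0.0544 and 0.0741) and Fzd4 did (0.0421). Replicate numbers are shared by only 2 libraries of each group, and their deviations did not go together (r of -0.0557 and -0.0101 for same-numbered libraries). With 2 DKO libraries the deviations mirror one another, so these values cannot settle whether the numbers pair the libraries. With a replicate block 214 genes passed, 120 higher and 94 lower, and 1 of the set, Dkkl1. Between WT motoneurons and interneurons, WT replicates 1, 5 and 6 alone gave 3536 genes against 5419, and 10 of the set against 16. In WT motoneurons against mES progenitors, Fzd9 turned to 0.0166 without the pMN library and was -3.10 without the NP library. Scaling to total signal set the median of all genes at 0.155 there, against -0.123. The causes were not tested. DKO replicate 1, the shallowest library, limits what can be seen in low genes.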
